A study of Rattus norvegicus with 18 samples.

Results

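The genes described here encode neuropeptides and proteins of the dense-core vesicle, the organelle in which neurons store and process peptides before release. They were 10 genes chosen by symbol: the peptide precursors Calca, Calcb, Adcyap1 and Sst, the vesicle proteins Resp18, Scg2, Chga and Chgb, and the prohormone convertases Pcsk1 and Pcsk2. They took up 11 of the 15075 RefSeq identifiers in the series' table of read counts, since Calca was listed under 2. Resp18 and Calcb had been higher with neurotrophin-3 than in naïve rats in an earlier look at the same data, so that contrast is given below as a description without a test. Poly(A) RNA was sequenced from the dorsal root ganglia of cervical segments 6 to 8 of adult Lister Hooded rats, in 3 groups of 6 rats. Naïve rats were not operated on and received no vector. The rats of both other groups, bPYX+GFP and bPYX+NT3, had had the corticospinal tracts cut in both medullary pyramids 10 weeks before the tissue was taken, and an AAV1 vector injected the day after the cut into the forelimb flexor muscles of 1 side. The vector carried the green fluorescent protein or human neurotrophin-3 (NT3) behind the CMV promoter, and the ganglia of the treated side were pooled within each rat. The naïve rats differed from bPYX+GFP rats in injury, surgery and vector together, and these cannot be told apart.

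Sensory neurons make peptides as long precursors that enter the secretory pathway, are sorted into dense-core vesicles and are cut there by convertases into the active forms. Granins such as Scg2, Chga and Chgb fill these vesicles and help to form them. In dorsal root ganglia the calcitonin gene-related peptides made from Calca and Calcb mark a large class of nociceptors, and Adcyap1, the precursor of the peptide PACAP, is known for rising after nerve injury.

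Several neuropeptide and granin genes are known to be switched on through the cAMP response element, the palindrome TGACGTCA, so the stretches that hold this element or a near relative are shown. RefSeq promoter windows of GRCr8, from 250 bases before to 50 bases after the start of each gene, were at hand for 7 of the 10 genes, and none was for Calcb, Chga or Pcsk1. The palindrome was found in the windows of Scg2 and Sst, in 2 of 7, against 612 of 33469 windows (1.83%) over all genes. The Calca window held the related letters TGACGCA, searched on both strands like the palindrome and present in 1.90% of all windows. Its 5-base core TGACG, which overlaps both, was in 4 of the 7 windows and in 21.2% of all windows. Vgf, a granin-like precursor described further on, is added for comparison. Capitals mark the matched letters, and each stretch reads 5′ to 3′ on the strand of its gene.
Scg2 (chr9:88256964-88257015, minus strand, element from base -123): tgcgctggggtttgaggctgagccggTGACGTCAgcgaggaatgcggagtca
Sst (chr11:90461512-90461559, plus strand, element from base 3): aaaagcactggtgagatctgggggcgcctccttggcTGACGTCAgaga
Calca (chr1:178317617-178317667, minus strand, letters from base -112): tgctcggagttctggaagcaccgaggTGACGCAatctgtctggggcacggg
Vgf (chr12:25277085-25277136, minus strand, element from base -90): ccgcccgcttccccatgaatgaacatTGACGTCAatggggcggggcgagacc
These matches describe letters in a window of the reference and were not measured in these rats.

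Between 10057787 and 16002410 reads per rat were assigned to genes. Markers of neurons (Stmn2, Nefh), satellite glia (Glul) and Schwann cells (Prx) were all read in the ganglia. The sympathetic markers Dbh, Phox2a and Hand2 had 19, 2 and 1 reads over the 18 rats, but Th, a further one, had 255. The log2 difference of Th was 0.43 ± 0.40 (SE) for bPYX+GFP minus naïve and 0.34 ± 0.50 for bPYX+NT3 minus bPYX+GFP. Groups follow the rat numbers in the heading of the count table. The files deposited for single rats match the table column for column, but 17 of 18 sit with a record titled for another group. The transgene gave no check of the labels, because it is human and the rat gene Ntf3 was listed at 0. Rats 11 (bPYX+NT3) and 57 (bPYX+GFP) stood apart from the other 16 in how their reads were assigned: 30.8% and 31.7% of reads lay outside annotated exons, against 32.5% to 34.6%, and 3.41% and 3.31% lay on several identifiers, against 2.79% to 3.04%. Many results that rest on these rats are given with and without them, and others with the range over fits that left out 1 rat in turn.

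Calca was counted so thinly that its level says little about the gene. Over the 18 rats its identifier NM_017338 had 902 reads and NM_001033955 had 3, while NM_001033956, in the files per rat only, had 0. Calcb, with 1 identifier, had 21677 reads. Reads that fell on more than 1 identifier had been set aside, and genes with several identifiers had fewer reads on the median, though not all of them (Ret, with 2, had 147758). The median over 18 rats was 2339 reads for the 15223 genes with 1 identifier, 31 reads for the 328 genes with 2, and 6 reads for the 157 genes with 3 or more. Tac1, the precursor of substance P, has 4 identifiers and was listed at 0, as was the PACAP receptor gene Adcyap1r1 with 6. A count near 0 for such a gene is therefore no sign that the gene is silent. Counts of different genes are not compared here, because a count also grows with the length of the transcript.

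**Figure D1:**
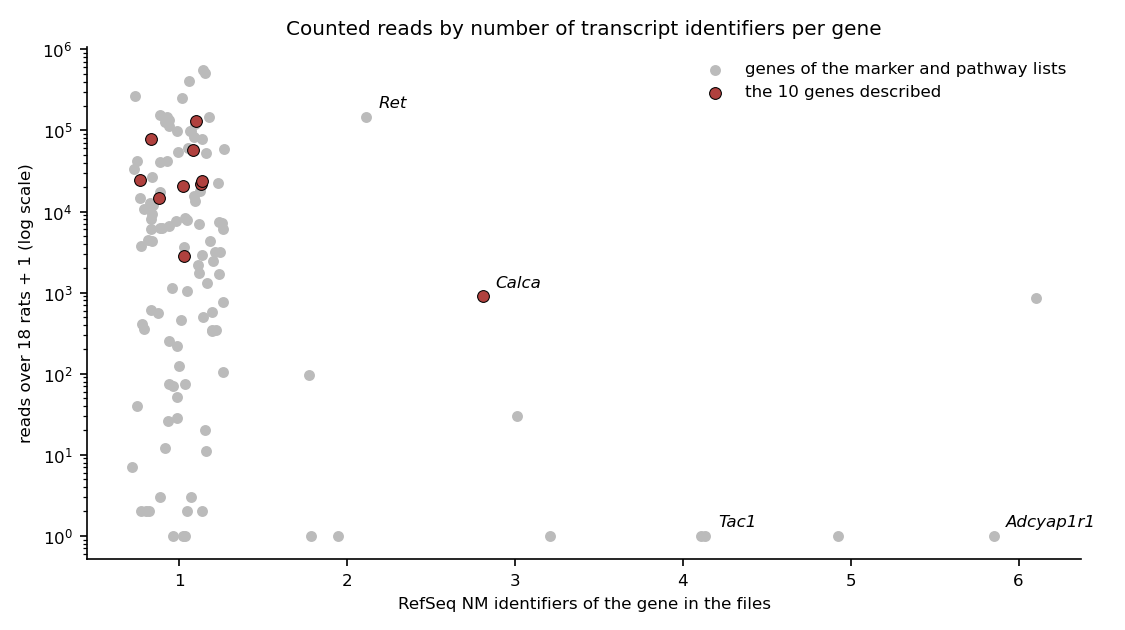
Reads summed over 18 rats plus 1 (log axis) against the number of RefSeq NM identifiers of each gene (points spread sideways within a number), for the 10 genes described (red) and the genes of the marker and pathway lists (grey). The 9 red genes with 1 identifier lie between 2853 and 131472 reads, and Calca, with 3 identifiers, has 905.

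Values below are normalised read counts, that is reads divided by the library size after TMM scaling and multiplied by the mean library size. A gene was called changed where the quasi-likelihood test of edgeR gave it an unadjusted p under 0.05, the threshold of the study, and the p adjusted over all genes tested is given beside it. In whole ganglia, fewer cells of a type and less RNA per cell cannot be told apart.

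Calca (NM_017338) ranged from 20.01 to 67.3 in naïve rats with a median of 46.7, from 35.2 to 76.5 in bPYX+GFP rats with a median of 49.97, and from 41.5 to 62.0 in bPYX+NT3 rats with a median of 52.1. The groups overlapped almost completely, and naïve rat 49 was by far the lowest. At 18 to 79 reads per rat the log2 differences had wide errors, 0.25 ± 0.25 (SE) for bPYX+GFP minus naïve and -0.03 ± 0.19 for bPYX+NT3 minus bPYX+GFP, and neither passed the test (edgeR p = 0.346 and 0.878, exact permutation p = 0.407 and 0.946).

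Calcb, which encodes the second calcitonin gene-related peptide, ranged from 980.5 to 1232 in naïve rats (median 1104), from 944 to 1388 in bPYX+GFP rats (median 1244) and from 1204 to 1395 in bPYX+NT3 rats (median 1332). The bPYX+NT3 rats lay close together and only naïve rat 41 reached into their range. The bPYX+GFP rats fell apart, with rats 5, 52 and 57 at 1036, 1135 and 944 and rats 15, 18 and 21 at 1388, 1382 and 1353. Between bPYX+GFP and naïve the log2 difference was 0.14 ± 0.10 (SE), which did not pass the test (edgeR p = 0.182, two-sided exact permutation p = 0.299). Leaving out each rat in turn, it ran from 0.09 to 0.19. Without rat 57 it was 0.19 with an unadjusted p of 0.0337, in a fit that called 595 of 11520 genes (5.16%). With the share of reads on several identifiers as a covariate it was 0.16 with an unadjusted p of 0.0498, in a fit that called 1018 of 11601 genes. Between bPYX+NT3 and bPYX+GFP the difference was 0.12 ± 0.09 (edgeR p = 0.233, exact permutation p = 0.225).

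Adcyap1, the PACAP precursor, varied widely within each group. Its count ran from 904 to 1694 in naïve rats (median 1491), from 833 to 1640.2 in bPYX+GFP rats (median 1343) and from 1153 to 1878 in bPYX+NT3 rats (median 1344). Naïve rat 49 and bPYX+GFP rats 5 and 57 were low, and bPYX+NT3 rat 17 was the highest of all. The log2 difference was -0.13 ± 0.18 (SE) for bPYX+GFP minus naïve and 0.14 ± 0.16 for bPYX+NT3 minus bPYX+GFP, both smaller than their error (edgeR p = 0.486 and 0.385, exact permutation p = 0.530 and 0.383).

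Sst, the somatostatin precursor of a small class of sensory neurons, ranged from 92.2 to 180.3 in naïve rats (median 159), from 141 to 233 in bPYX+GFP rats (median 165) and from 122 to 193 in bPYX+NT3 rats (median 158). The groups overlapped, with rat 42 (naïve) lowest and rat 5 (bPYX+GFP) highest. Its log2 difference was 0.22 ± 0.16 (SE) for bPYX+GFP minus naïve and -0.14 ± 0.13 for bPYX+NT3 minus bPYX+GFP (edgeR p = 0.208 and 0.314, exact permutation p = 0.266 and 0.351).

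Resp18 encodes a protein of neuroendocrine vesicles and of the regulated secretory pathway. Its count ran from 928 to 1057 in naïve rats (median 1025), from 933 to 1304 in bPYX+GFP rats (median 1077) and from 1087 to 1445 in bPYX+NT3 rats (median 1259.7). The naïve rats were the tightest group, and the bPYX+GFP rats lay across both others. All bPYX+NT3 rats lay above all naïve rats, as for 12 of 11693 genes (0.103%), in the contrast that had singled out Resp18. The bPYX+GFP minus naïve difference was 0.16 ± 0.08 on the log2 scale (SE), with 5 of 6 rats above the naïve median, and did not pass (edgeR p = 0.0862, exact permutation p = 0.145). Leaving out each rat in turn, it ran from 0.10 to 0.20. Without rat 18 it was 0.20 with an unadjusted p of 0.0197, and without rat 5 it was 0.11 with an unadjusted p of 0.206. The bPYX+NT3 minus bPYX+GFP difference was 0.15 ± 0.10, with 6 of 6 bPYX+NT3 rats above the bPYX+GFP median, and did not pass either (edgeR p = 0.145, exact permutation p = 0.130). It ran from 0.10 to 0.20 when each rat was left out in turn. Without rat 57 it was 0.20 with an unadjusted p of 0.0423, and without rats 11 and 57 together it was 0.16 with an unadjusted p of 0.0813.

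Scg2, the secretogranin that is also the precursor of secretoneurin, ranged from 6350.0 to 7646 in naïve rats (median 7165), from 6691 to 8058 in bPYX+GFP rats (median 7312) and from 6571 to 8396 in bPYX+NT3 rats (median 7549). It had the most reads of the 10 genes and its groups overlapped throughout. Its log2 difference was 0.06 ± 0.06 (SE) for bPYX+GFP minus naïve and 0.04 ± 0.07 for bPYX+NT3 minus bPYX+GFP (edgeR p = 0.314 and 0.595, exact permutation p = 0.329 and 0.608).

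Chga, which encodes chromogranin A, ranged from 613 to 852 in naïve rats (median 726), from 649 to 1287 in bPYX+GFP rats (median 727) and from 698 to 1217 in bPYX+NT3 rats (median 821). A single rat set the top of each injured group, rat 57 at 1287 and rat 11 at 1217, and none of the other 16 rats exceeded 879.8. The log2 difference was 0.19 ± 0.16 (SE) for bPYX+GFP minus naïve and 0.07 ± 0.18 for bPYX+NT3 minus bPYX+GFP (edgeR p = 0.255 and 0.714, exact permutation p = 0.476 and 0.595). Leaving out rat 57 brought the first value to 0.00, and leaving out rat 11 turned the second to -0.06.

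Chgb, which encodes chromogranin B, ranged from 2877 to 3199.8 in naïve rats (median 2929.6), from 2604 to 4167 in bPYX+GFP rats (median 3048) and from 2769 to 3592 in bPYX+NT3 rats (median 3084). The naïve rats lay within a narrow band and the injured rats spread to both sides of it, with rat 5 the highest. The coefficient of variation was 4.46% in naïve rats, against 18.6% with bPYX+GFP and 10.1% with bPYX+NT3. Its log2 difference was 0.12 ± 0.10 (SE) for bPYX+GFP minus naïve and -0.03 ± 0.11 for bPYX+NT3 minus bPYX+GFP (edgeR p = 0.273 and 0.819, exact permutation p = 0.433 and 0.931).

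Pcsk1, the convertase PC1/3, had a negative log2 difference in both tested comparisons, neither larger than its error. Its count ran from 3939 to 5562 in naïve rats (median 4445), from 3201 to 4858 in bPYX+GFP rats (median 4502) and from 3046 to 4872 in bPYX+NT3 rats (median 4315). The lowest values were again those of rats 57 and 11, and the next lowest of the 18 was 3939. The log2 difference was -0.09 ± 0.10 (SE) for bPYX+GFP minus naïve and -0.04 ± 0.11 for bPYX+NT3 minus bPYX+GFP (edgeR p = 0.381 and 0.757, exact permutation p = 0.437 and 0.745). With each rat left out in turn, these ran from -0.139 to -0.025 and from -0.106 to 0.039.

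Pcsk2, the convertase PC2, was highest in the rats in which Pcsk1 was lowest. It ranged from 1149 to 1319 in naïve rats (median 1262), from 1121 to 1664 in bPYX+GFP rats (median 1257) and from 1113 to 1558 in bPYX+NT3 rats (median 1374). Rats 57 and 11 were the highest of all, at 1664 and 1558. Its log2 difference was 0.08 ± 0.09 (SE) for bPYX+GFP minus naïve and 0.05 ± 0.11 for bPYX+NT3 minus bPYX+GFP (edgeR p = 0.389 and 0.670, exact permutation p = 0.569 and 0.634). With each rat left out in turn, these ran from -0.0063 to 0.121 and from -0.0012 to 0.130.

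**Figure D2:**
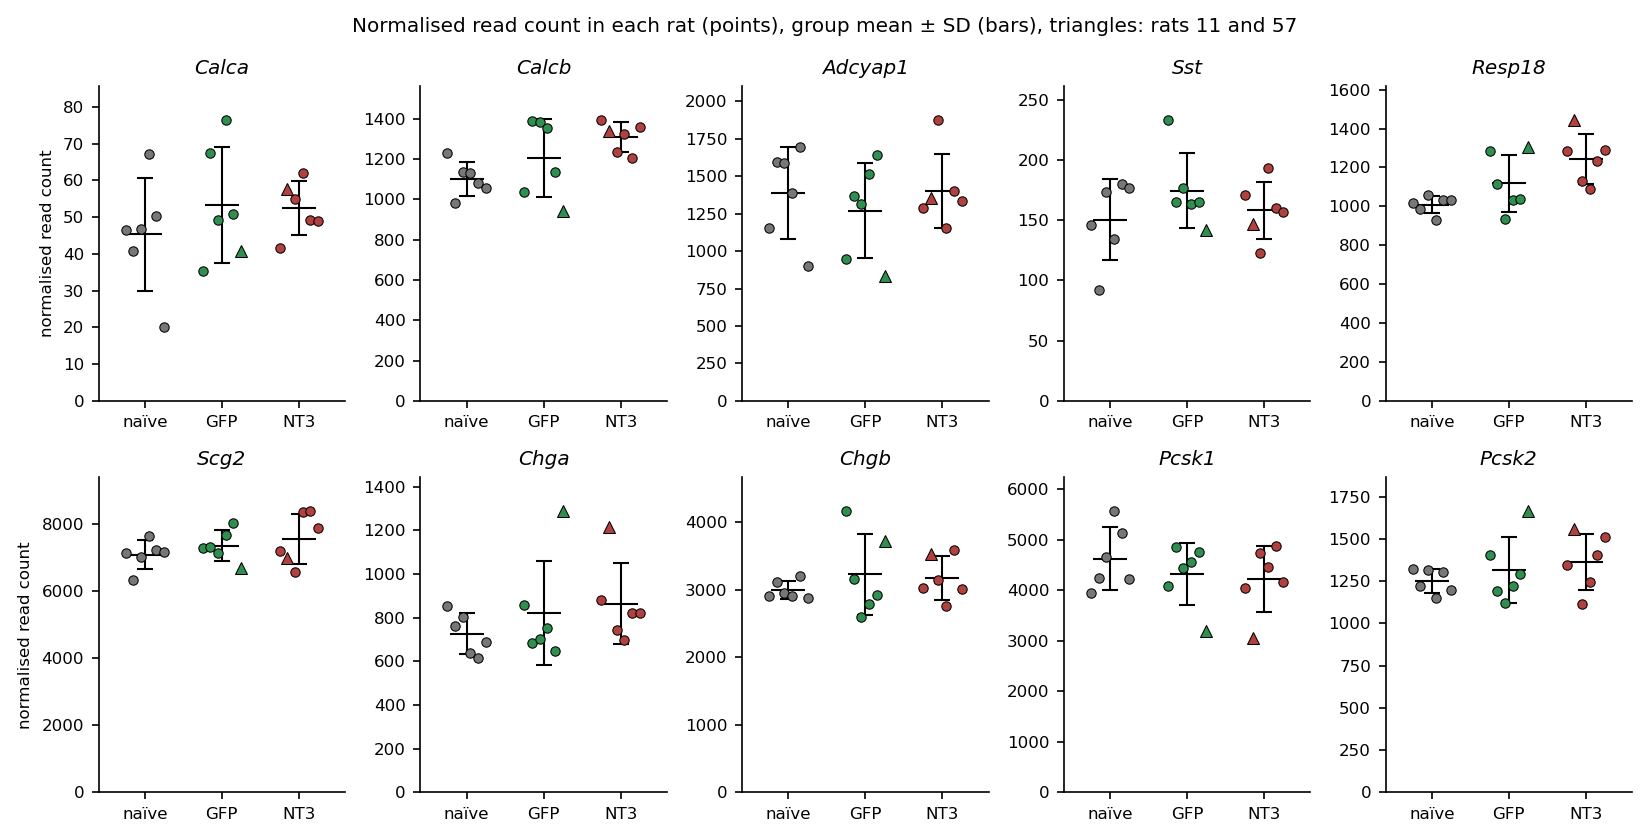
Normalised read count (vertical axis, from 0) of each gene in each rat, with group mean ± SD over 6 rats as bars and rats 11 and 57 as triangles. All 6 bPYX+NT3 rats lie above the naïve rats for Resp18, as for 12 of 11693 genes (0.103%), in the contrast that had singled it out. For Chga 1 triangle in each injured group lies far above the rest at 1217 and 1287.

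The first comparison was of bPYX+GFP with naïve rats. None of the 10 genes was called between bPYX+GFP and naïve rats, where 377 of 11601 genes (3.25%) were, and the adjusted p was 0.9998 for each of the 10. No gene of the whole table passed an adjusted p of 0.05 in edgeR's quasi-likelihood test, against 13 with its likelihood ratio test and 16 with DESeq2. The log2 differences of the 10 were positive for 8 and negative for Adcyap1 and Pcsk1, with a median of 0.13 against 0.01 over all genes tested. Measured against the mean of the pan-neuronal markers in place of all genes, that median was 0.04. With rats 11 and 57 left out, 595 of 11520 genes (5.16%) were called, Calcb among them. Rat 11 is not in this comparison, so here that fit is the same as leaving out rat 57 alone.

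The second comparison was of NT3 with the control vector. None of the 10 was called between bPYX+NT3 and bPYX+GFP rats, against 201 of 11623 genes (1.73%), and the lowest adjusted p among them was 0.851. The whole table held no gene at an adjusted p under 0.05 with edgeR's quasi-likelihood or likelihood ratio test or with DESeq2. When rats 11 and 57 were left out, the share of genes called rose to 1462 of 11477 (12.7%), still with none of the 10, so calls made without these rats are read against that share. The differences were positive for 6 and negative for 4 of the 10, with a median of 0.04 on the log2 scale against 0.00 over all genes tested. This comparison shares the bPYX+NT3 rats, and the one before it shares the naïve rats, with the contrast that singled out Resp18 and Calcb.

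That contrast, bPYX+NT3 minus naïve, is given as values only. Resp18 was higher by 0.30 ± 0.07 on the log2 scale (SE; means 1245 and 1009) and its groups did not overlap, as for 30 of 11693 genes (0.257%) in either direction and 12 (0.103%) that were higher. Calcb was higher by 0.25 ± 0.06 (means 1309.6 and 1102), Chga by 0.25 ± 0.13, Calca by 0.21 ± 0.22, Pcsk2 by 0.12 ± 0.08, Scg2 and Chgb by 0.09 ± 0.07 each, Sst by 0.08 ± 0.16 and Adcyap1 by 0.01 ± 0.15, while Pcsk1 was lower at -0.13 ± 0.11. Over all genes 703 of 11693 (6.01%) were called and none at an adjusted p under 0.05 by edgeR's quasi-likelihood or likelihood ratio test or by DESeq2. Set against the pan-neuronal markers, Resp18 was higher by 0.17 and Calcb by 0.12, and with the groups named in the records of the single files both turned, to -0.17 and -0.27. With the share of reads on several identifiers as a covariate, Resp18 was higher by 0.22, Calcb by 0.22 and Chga by 0.03. With each rat left out in turn, Chga ran from 0.13 to 0.30, Pcsk2 from 0.08 to 0.19 and Pcsk1 from -0.17 to -0.05.

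**Figure D3:**
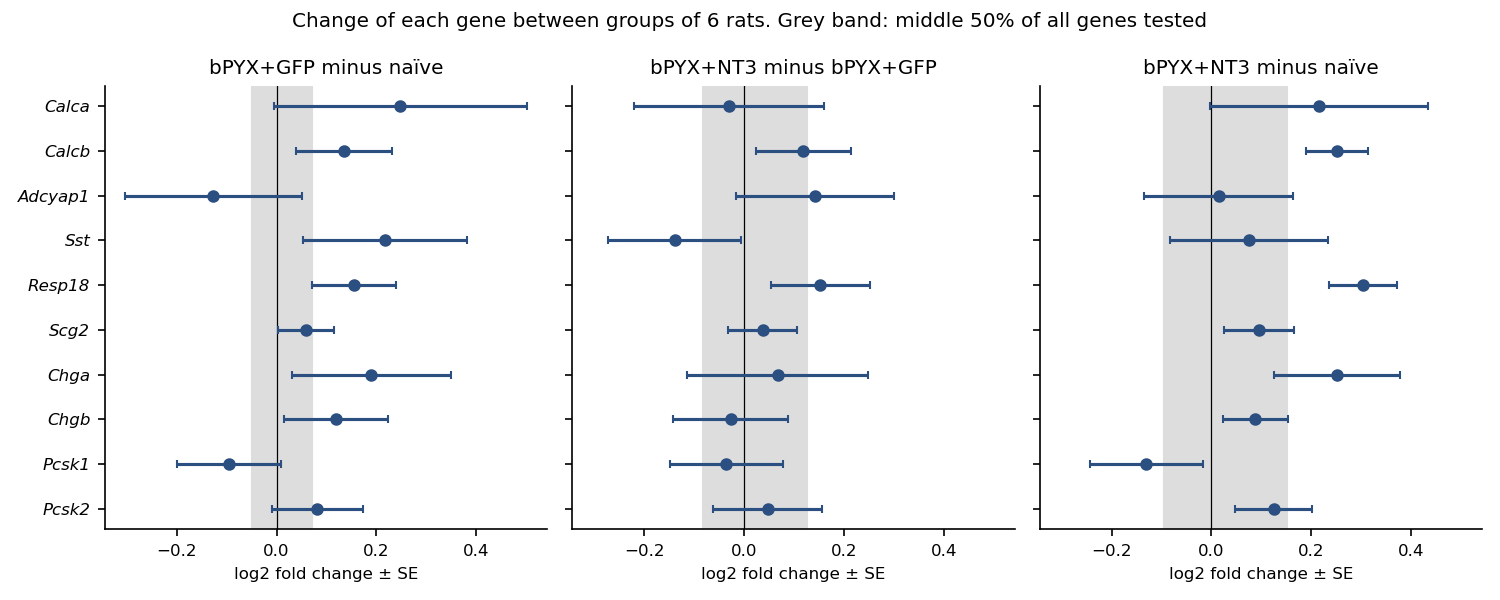
Log2 fold change ± SE of each gene (horizontal axis) in the 3 comparisons of 6 against 6 rats, with a grey band over the middle 50% of all genes tested. Resp18 lies at 0.16, 0.15 and 0.30 from left to right, and Calcb at 0.14, 0.12 and 0.25.

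The genes did not vary independently from rat to rat. The clearest relation was an inverse one between Chga and Pcsk1, with r = -0.901 over 18 rats and rho = -0.810 on log2 CPM (permutation p = 1e-05, the smallest that 100000 permutations can give, and 7e-05). Adjusted over the 45 pairs these were 0.00045 and 0.00315. Rats 11 and 57 lie at the far end of this relation and were also the 2 farthest on the Chga axis. Over the other 16 rats r was -0.714 (permutation p = 0.00192, adjusted p = 0.0515). It was negative within each group of 6, at -0.768 (naïve), -0.984 (bPYX+GFP) and -0.905 (bPYX+NT3). Chga and Pcsk2 moved together (r = 0.806, rho = 0.744, permutation p = 5e-05 and 0.00061, adjusted p = 0.00075 and 0.0137), and so did Resp18 and Pcsk2 (r = 0.800, rho = 0.711, permutation p = 4e-05 and 0.00137, adjusted p = 0.00075 and 0.0206). Over the 16 rats these were 0.572 and 0.712. Of the 45 pairs, 8 had an adjusted p of r under 0.05, 5 of them positive, and without rats 11 and 57 none did. The 2 calcitonin genes had r = 0.535 and rho = 0.490 (permutation p = 0.0174 and 0.0409, adjusted p = 0.0757 and 0.184), and 0.519 without those rats.

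The same genes moved with the way reads were assigned in each library. The share of reads set aside because they lay on several identifiers followed Chga with r = 0.953 and rho = 0.891 (permutation p = 1e-05 for both, adjusted over 40 relations 0.0002 and 0.0004). Without rats 11 and 57 r was 0.871 (permutation p = 4e-05, adjusted p = 0.0016), and within the naïve, bPYX+GFP and bPYX+NT3 rats it was 0.986, 0.982 and 0.942. For Pcsk1 the relation was inverse, at r = -0.900 and rho = -0.771 (permutation p = 1e-05 and 0.00023, adjusted p = 0.0002 and 0.0046), and -0.680 over 16 rats. Resp18 had r = 0.762 and rho = 0.674 (permutation p = 4e-05 and 0.00242, adjusted p = 0.0004 and 0.0121), and 0.6249 over 16 rats, where its adjusted p was 0.108, and within the naïve, bPYX+GFP and bPYX+NT3 rats 0.241, 0.781 and 0.828. Pcsk2 had r = 0.769 and rho = 0.692 (permutation p = 0.00027 and 0.0021, adjusted p = 0.00154 and 0.012), and 0.521 over 16 rats, where its adjusted p was 0.178. Calcb and Adcyap1 had r = -0.061 and -0.327 with this share (permutation p = 0.816 and 0.183), but the pooled values hid unlike groups: Calcb had 0.383, -0.833 and 0.430, and Adcyap1 -0.041, -0.821 and -0.035, in the same order of groups. Over all 18 rats depth showed no relation of this size with Chga (r = 0.435, rho = 0.453, permutation p = 0.0705 and 0.0602) or Resp18 (r = 0.379, permutation p = 0.121). Within groups, in the same order, r with depth was 0.209, 0.575 and 0.864 for Chga and 0.370, 0.380 and 0.954 for Resp18. For Pcsk2 it was 0.480, 0.475 and 0.722, and for Pcsk1 -0.410, -0.445 and -0.694. The part of read assignment and of depth in the levels of Chga, Pcsk1, Pcsk2 and Resp18 was not tested.

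**Figure D4:**
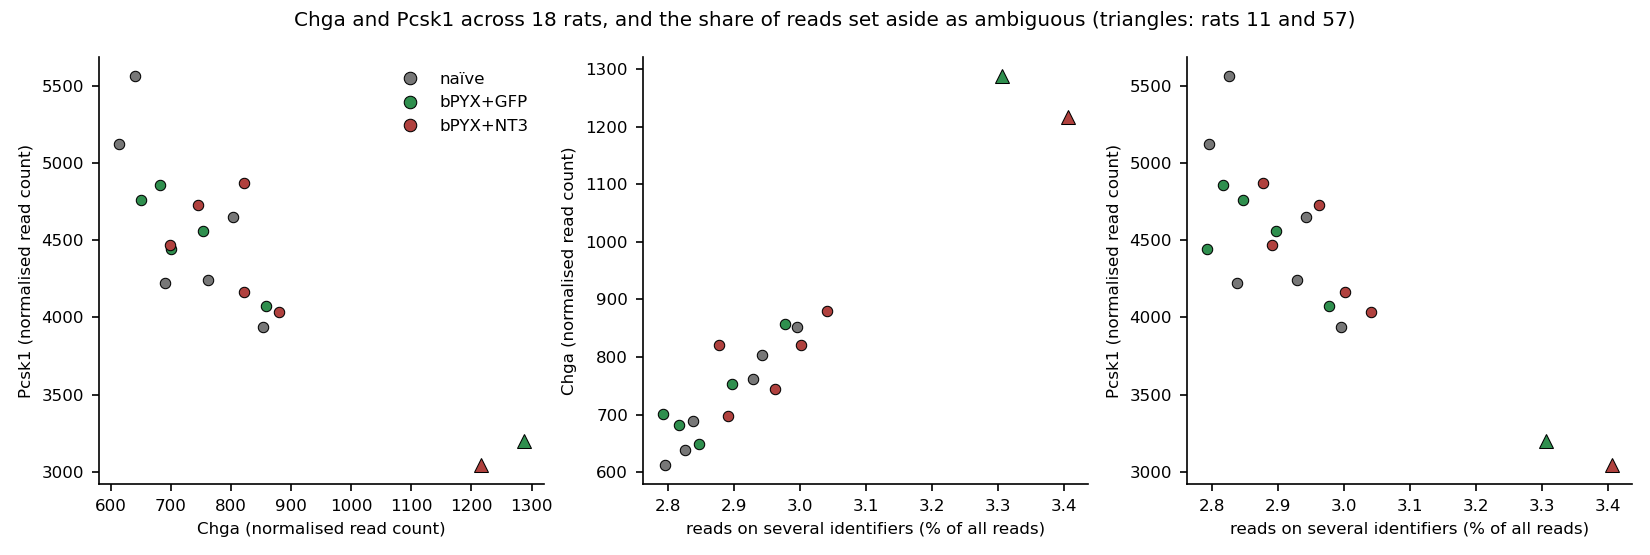
Normalised read counts of Pcsk1 against Chga (left), and of Chga (middle) and Pcsk1 (right) against the share of all reads that lay on several identifiers, 1 point per rat, with rats 11 and 57 as triangles. Chga rises and Pcsk1 falls with the share, which spans 2.79% to 3.41%, and the triangles lie at the far end in each panel.

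Of 30 other neuropeptide precursor genes, 12 had enough reads to be tested. None was called between bPYX+GFP and naïve rats, and Gal and Vgf were called higher in bPYX+NT3 than in bPYX+GFP rats. Gal, the precursor of galanin, ranged from 66.8 to 247 in bPYX+GFP rats (median 147) and from 109 to 661 in bPYX+NT3 rats (median 203), with naïve rats from 28.9 to 447. Its log2 difference was 0.97 ± 0.43 (SE; edgeR p = 0.0425, adjusted p = 0.851, exact permutation p = 0.113), and 6 of the 12 fits that left out 1 rat no longer called it. Vgf ranged from 110.4 to 192 in bPYX+GFP rats (median 159) and from 147 to 381 in bPYX+NT3 rats (median 213), a difference of 0.55 ± 0.22 (edgeR p = 0.0270, adjusted p = 0.851, exact permutation p = 0.0541), which 4 of the 12 such fits lost. Nmb, the neuromedin B precursor, was the next most read of the list, with medians of 137, 146 and 176 in naïve, bPYX+GFP and bPYX+NT3 rats and no call in these comparisons. Rat 11 alone carried much of both: without it Gal was at 0.53 and Vgf at 0.34, with unadjusted p of 0.167 and 0.0772. Both calls were also lost with the replicate block (p of 0.107 and 0.0764), that of Gal with either read-assignment covariate (0.49 and 0.60) and in 1 fit over the 3 groups (p of 0.0631), and with the groups of the single files' records the values turned to -0.17 and -0.21. Without rats 11 and 57 together Gal and Vgf were called, at 0.75 and 0.41, and thinly read genes joined them: Nts, the neurotensin precursor, at 0.35 for bPYX+GFP minus naïve and -0.59 for bPYX+NT3 minus bPYX+GFP, and Penk, the enkephalin precursor, at -0.60 for the former. Npy, a peptide known for appearing in sensory neurons after nerve section, had 1 read over the 18 rats.

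Among 26 other genes of granins, peptide processing and vesicles, 23 were tested and Pcsk5 was called lower in bPYX+GFP than in naïve rats. Pcsk5, a further convertase, ranged from 376 to 512 in bPYX+GFP and from 412 to 565 in naïve rats, a log2 difference of -0.25 ± 0.09 (SE; edgeR p = 0.0202, adjusted p = 0.9998, exact permutation p = 0.0411). The 12 fits that left out 1 rat all called it, at -0.31 to -0.22 with an unadjusted edgeR p of up to 0.0479. With the groups of the single files' records it turned to 0.07. None was called between bPYX+NT3 and bPYX+GFP rats. Without rats 11 and 57 both the convertase Furin and Ptprn, a membrane protein of dense-core vesicles, were called higher there, at 0.39 and 0.47 on the log2 scale with unadjusted p of 0.0173 and 0.0236 (0.33 and 0.43 with all rats). The 3 with the most reads were Syt4, a calcium sensor family member, Cpe, the carboxypeptidase that trims peptides after the convertases, and Scg3. Their log2 differences for bPYX+GFP minus naïve were -0.02, 0.07 and 0.07, and for bPYX+NT3 minus bPYX+GFP -0.02, -0.05 and -0.03, none of them called.

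Of 14 receptor genes for the peptides, 9 were tested, and Calcrl, which forms the CGRP receptor together with Ramp1, was called lower in bPYX+GFP than in naïve rats. It ranged from 279 to 420.2 in bPYX+GFP and from 343 to 457 in naïve rats, a log2 difference of -0.22 ± 0.10 (SE; edgeR p = 0.0421, adjusted p = 0.9998, exact permutation p = 0.0541). Of the 12 fits that left out 1 rat 8 no longer called it, with differences from -0.29 to -0.17, and 1 fit over the 3 groups did not either (p of 0.129). With DESeq2's size factors its unadjusted p was 0.0502, and with the groups of the single files' records it turned to 0.09. With rats 11 and 57 left out, Ramp3, a further partner of Calcrl, was called higher in bPYX+NT3 than in bPYX+GFP rats by 0.37 on the log2 scale. Crcp, a component of CGRP receptor signalling, and Ramp2, which pairs with Calcrl as an adrenomedullin receptor, differed by -0.01 each for bPYX+GFP minus naïve and by 0.13 and 0.04 for bPYX+NT3 minus bPYX+GFP, with no call.

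The level of neuronal markers was set beside the 10 genes, since ganglia hold many cell types. Of 10 pan-neuronal markers 9 were tested, none was called with all rats, and their median log2 difference was 0.05 for bPYX+GFP minus naïve, 0.08 for bPYX+NT3 minus bPYX+GFP and 0.18 for bPYX+NT3 minus naïve. Their summed count ran from 42859.8 to 52686 in naïve, from 47924 to 59122 in bPYX+GFP and from 46110.3 to 67025 in bPYX+NT3 rats. Across 18 rats the mean log2 level of the 10 genes and that of the markers had r = 0.274 and rho = 0.154 (permutation p = 0.266 and 0.539, adjusted p = 0.532 and 0.539), and r = 0.230 without rats 11 and 57, the farthest on the marker axis. Within groups r was 0.137, -0.435 and 0.557. Isl1 was called lower (-0.15) and Prph higher (0.29) for bPYX+NT3 minus bPYX+GFP once rats 11 and 57 were left out. Of 4 satellite glia markers, Kcnj10 was called higher in bPYX+NT3 than in bPYX+GFP rats. Its log2 difference was 0.42 ± 0.15 (SE; edgeR p = 0.0154, adjusted p = 0.851, exact permutation p = 0.0238). Without rats 11 and 57 Kcnj10 was called there at 0.50, and for bPYX+GFP minus naïve at -0.43. The other satellite glia markers went both ways and were not called with all rats. Fabp7, Glul and Cdh19 were at 0.13, -0.10 and -0.15 for bPYX+NT3 minus bPYX+GFP, and at -0.37, 0.11 and -0.04 for bPYX+GFP minus naïve. Of 3 fibroblast markers, Col1a1 and Lum were called lower in bPYX+GFP than in naïve rats (Col1a1 alone without rats 11 and 57), and the sum of the 3 ran from 19290.5 to 24506 against 20112 to 27481. Of 3 Schwann cell markers reported here (Pmp22, Prx and Mbp) Pmp22 was called lower, at -0.31 ± 0.11 (SE) on the log2 scale, and Prx too without rats 11 and 57 (-0.56). Their part in the differences of the 10 genes was not tested.

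For Resp18, Calcb and Calca the genes with the most similar pattern over the 18 rats were sought among 8654 genes with at least 100 reads on average, as a description. For Resp18 these were Incenp (r = 0.887), Chpf2 (0.877) and Rnft2 (0.864), which had 0.839, 0.821 and 0.795 without rats 11 and 57. For Calcb they were Pde3b (0.661), C15h14orf119 (0.651) and Bcl6 (0.638). For Calca they were Ptprt (0.747), Clec7a (0.738) and Dapp1 (0.720), at the few reads that Calca had.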

How the data were processed

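Ganglia of cervical segments 6 to 8 were sequenced as stranded poly(A) libraries. Per the submitters' processing notes the authors used bcl2fastq 1.8.4, TopHat2, Picard and HTSeq with the build rn6 (Rnor_6.0). The deposited values are raw read counts per RefSeq identifier. Unassigned reads did not enter library sizes (averages per rat: 33.3% outside annotated exons, 2.95% on several identifiers, 21.1% at several places). Of 15075 identifiers 14193 matched a symbol (RefSeq, GRCr8). Precision follows depth, 10057787 to 16002410 reads per rat. Each pair of groups was tested with edgeR 4.0.16 (R 4.3.3) by the quasi-likelihood F test after TMM scaling, keeping genes that exceeded 10 reads in 6 or more of 12 rats, at an unadjusted p under 0.05 with Benjamini-Hochberg values beside it. SE is the log2 fold change divided by the square root of F. Exact permutation tests of 6 against 6 rats were two-sided on log2 CPM with a prior count of 2, and 0.00216 is the smallest p they allow. Correlations used the same scale and 100000 permutations. The scripts were tested on simulated data with 200 changed genes. DESeq2 1.42.0, other scalings and filters, covariates, other groupings and left-out rats were tried as alternatives. Named genes were all 10 genes, pathway list genes called in either tested comparison, the 3 most read genes of each list, and the 3 genes most like Resp18, Calcb and Calca. Members and lists were chosen with earlier results of these data known. Rats were separate animals. A marker gene of the Schwann cell list is not reported here.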

Additional observations from a re-analysis of the deposited data

Results flagged for a closer look

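In 3 of 30 sets of 6 rats (10 genes in 3 groups), 1 rat lay so far from the other 5 that its gap, as a share of the range, exceeded Dixon's critical value. Chance gives such a gap in about 1 of 20 sets. Adcyap1 was 1878 in bPYX+NT3 rat 17, against 1153 to 1400.1 in the others of its group. Chga was 1287 in bPYX+GFP rat 57, against 649 to 858, and 1217 in bPYX+NT3 rat 11, against 698 to 879.8. Rats 57 and 11 also had the highest Pcsk2 and Resp18 counts of all 18 rats, the lowest Pcsk1 counts and the highest share of reads on several identifiers. What ties these together was not tested.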

How the results depend on the processing

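Medians are of the log2 differences of the 10 genes, and no p here is adjusted. The number of genes called stayed at 0 in both tested comparisons with the likelihood ratio test, DESeq2, its size factors, library size alone, either other filter, 1 fit over 3 groups and a covariate for reads outside exons. Leaving out each rat in turn, it ran from 0 to 1 in both, and the medians ran from 0.073 to 0.147 for bPYX+GFP minus naïve, from 0.014 to 0.062 for bPYX+NT3 minus bPYX+GFP and from 0.099 to 0.168 for bPYX+NT3 minus naïve. Without rats 11 and 57 (chosen after seeing the data, for their Chga and Resp18 counts and their read assignment) 1 gene, Calcb, was called between bPYX+GFP and naïve, and Pcsk2 turned to -0.0063. Between bPYX+GFP and naïve this is the same fit as the one without rat 57 alone, and it called 595 of 11520 genes (5.16%). With the share of reads on several identifiers as a covariate (also added later) 1 gene, Calcb at 0.16 with an unadjusted p of 0.0498, was called there. That fit called 1018 of 11601 genes of the table. With the same covariate Pcsk1 turned to 0.045 for bPYX+NT3 minus naïve, and for bPYX+NT3 minus bPYX+GFP Calca turned to 0.0059, Chga to -0.067, Pcsk1 to 0.062 and Pcsk2 to -0.020. The covariate for reads outside exons turned Chga to -0.092, Pcsk1 to 0.070 and Pcsk2 to -0.026 in the latter, and library size alone turned Calca to 0.0088, Chgb to 0.0057 and Pcsk1 to 0.0023.

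With the groups of the records that hold the single files, the median was -0.040 for bPYX+GFP minus naïve and -0.071 for bPYX+NT3 minus naïve, and 1 gene (Calcb) was called between bPYX+NT3 and bPYX+GFP. For bPYX+GFP minus naïve Calcb turned to -0.072, Sst to -0.16, Resp18 to -0.13, Chga to -0.12, Chgb to -0.12 and Pcsk1 to 0.052. For bPYX+NT3 minus naïve Calca turned to -0.16, Calcb to -0.27, Resp18 to -0.17, Chga to -0.12, Chgb to -0.080 and Pcsk1 to 0.13. For bPYX+NT3 minus bPYX+GFP Calcb turned to -0.20 with an unadjusted p of 0.0292, Adcyap1 to -0.013, Sst to 0.10, Resp18 to -0.046, Scg2 to -0.058, Chgb to 0.041 and Pcsk1 to 0.075. Relative to the pan-neuronal markers the bPYX+NT3 minus naïve median was -0.024, with Scg2 at -0.040, Chgb at -0.048 and Pcsk2 at -0.013. There Scg2 and Pcsk2 turned to -0.0096 and -0.0013 for bPYX+GFP minus naïve and to -0.030 and -0.012 for bPYX+NT3 minus bPYX+GFP. The cause was not tested.

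The labels number the rats of each group, and deviations of same-numbered rats were correlated. Their r ran from -0.36 to 0.33 for bPYX+GFP minus naïve, -0.31 to 0.54 for bPYX+NT3 minus naïve and -0.40 to 0.51 for bPYX+NT3 minus bPYX+GFP. In the same order, the own number was the best match for 1, 3 and 1 of 6 rats. Whether the numbers pair the rats was not settled. With the replicate numbers as a block, added later, 316, 2962 and 130 genes of the table were called in that order, against 377, 703 and 201 without it. None of the 10 genes was called in the tested comparisons. Their medians there were 0.112 and 0.043, and Calca turned to 0.0059 for bPYX+NT3 minus bPYX+GFP. Leaving out single rats turned Calca, Chga, Chgb, Pcsk1 and Pcsk2 in bPYX+NT3 minus bPYX+GFP (ranges -0.122 to 0.107, -0.064 to 0.246, -0.083 to 0.058, -0.106 to 0.039 and -0.0012 to 0.130) and Pcsk2 in bPYX+GFP minus naïve (-0.0063 to 0.121). Depth limits Calca, at 18 to 79 reads per rat.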
